A study of Mus musculus with 13 samples.

Results

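The tissue inhibitors of metalloproteinases (TIMPs) Timp1, Timp2, Timp3 and Timp4, together with Reck, a membrane-anchored inhibitor of the same enzymes, were followed through mouse lung RNA-seq. They were taken by gene symbol and make up 5 of the 20270 genes listed in the count and TPM tables, and all 5 passed the filter on low counts that left 15315 genes for testing. Lungs of 3 groups were compared, all from the lower right lobe. The controls (n = 4; libraries 3, 21, 24 and 26) were wildtype (WT) mice, for which the study's methods describe saline as the vehicle. The WT bleomycin mice (n = 5; libraries 4, 2, 5, 4-B2 and 7) and the CB1R KO bleomycin mice (n = 4; libraries 8, 9, 10 and 11) were taken 14 days after a single dose of bleomycin, 1 U per kg, given by oropharyngeal aspiration. The labels do not explain B2 or say whether libraries 4 and 4-B2 came from separate mice, so n = 5 counts libraries. Bleomycin is a drug that injures the alveolar epithelium and leads to fibrosis. WT mice were male C57BL/6J mice aged 13 weeks, and CB1R KO mice were Cnr1-/- mice on the C57BL/6J background, with the cannabinoid receptor 1 gene deleted in every cell, whose age the sources used here do not state separately. No CB1R KO lungs free of bleomycin are among the libraries used here, so a difference that the deletion alone makes cannot be told apart from a difference in the response to bleomycin.

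TIMPs are small secreted proteins that insert into the active site of matrix metalloproteinases (MMPs) and block the cleavage of collagen and other matrix proteins. Timp1 is the member most known for induction by cytokines, growth factors and injury, and in fibrotic lung it is produced by fibroblasts and macrophages. Timp2 takes part in the activation of pro-MMP2 by MMP14 at the cell surface, Timp3 is bound to the matrix and also inhibits ADAM and ADAMTS proteases, and Timp4 is best known from heart muscle and fat. Reck is held in the membrane by a lipid anchor, restrains MMP2, MMP9 and MMP14, and in blood vessels forms a Wnt7 receptor complex with Gpr124 (Adgra2).

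The members that differed most between groups were Timp1 and Reck, so the sequence before their start sites is shown, as the RefSeq annotation of build GRCm38.p6 gives it, 5′ to 3′. All 5 members had an entry in that promoter table. Capitals mark matches, on either strand, to AGGAAG (the core bound by ETS factors with its flanks) and to GGGCGG (the GC box bound by Sp1). The Timp1 window of 250 bases is chrX:20869916-20870165 on the plus strand, the Reck window is chr4:43875280-43875529 on the plus strand, and the third line is a stretch of 30 bases in the transcribed start of Timp1, chrX:20870185-20870214, in which capitals also mark TGAGTAA, a variant of the AP-1 site. The variant was added to the search after the sequence had been seen.
Timp1 before the start site: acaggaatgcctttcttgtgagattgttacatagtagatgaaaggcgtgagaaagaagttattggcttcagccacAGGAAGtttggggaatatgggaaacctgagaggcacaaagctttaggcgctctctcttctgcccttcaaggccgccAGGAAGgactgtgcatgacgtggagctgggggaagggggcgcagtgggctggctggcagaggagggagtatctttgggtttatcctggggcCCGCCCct
Reck before the start site: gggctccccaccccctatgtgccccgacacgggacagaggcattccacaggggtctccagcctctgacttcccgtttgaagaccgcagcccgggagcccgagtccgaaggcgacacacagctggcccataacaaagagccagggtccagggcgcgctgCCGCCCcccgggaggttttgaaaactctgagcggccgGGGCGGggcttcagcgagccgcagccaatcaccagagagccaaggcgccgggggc
Timp1 after the start site: gggtggaTGAGTAAtgcgtccAGGAAGcct
Timp1 and Reck differed in base composition here. G and C made up 54.4% of the Timp1 window, with 6 CpG, and 68.4% of the Reck window, with 19 CpG, against a median of 52.4% (quartiles 45.2% and 61.2%) over 32851 promoters of this length. Timp1 held AGGAAG 175 and 99 bases before its start and again 41 bases after it, TGAGTAA 27 bases after it and a GC box 8 bases before it. Reck held GC boxes 92, 55 and 4 bases before its start, the last of which runs past the window and is left in lower case. In windows of 250 bases before and 50 after the start, 35.4% of all promoters held AGGAAG, 35.7% GGGCGG and 2.68% TGAGTAA, on either strand. AGGAAG was found in 3 members (Timp1, Timp3 and Timp4), GGGCGG in 4 (all but Timp4) and TGAGTAA in Timp1. The AP-1 consensus TGANTCA (7.81% of promoters), TATAAA (13.6%) and the STAT site TTCNNNGAA (8.30%) had no match in the 5 members.

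Levels are given first as CPM, counts scaled to the size of each library with TMM factors, which compare one gene between mice, and for comparisons between genes as TPM, which correct for transcript length. Of the 13 libraries, 12 held between 14615904 and 16662580 estimated counts, and CB1R KO 11 held 53463884. Cnr1 was counted in every library, with 27 to 69 estimated counts in control, 50 to 110 in WT bleomycin and 41 to 188.1 in CB1R KO libraries. The 188.1 was in the deep library CB1R KO 11, at 3.47 CPM. Scaled to library size, Cnr1 was at 1.62 to 4.10 CPM in control, 3.46 to 6.97 in WT bleomycin and 2.47 to 5.63 in CB1R KO libraries. The gene totals do not show which part of Cnr1 the reads came from, so they do not check the genotype and directions rest on the labels. Markers of lung were present in all 13 libraries, and heart muscle and fat markers were counted in all of them too.

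Timp1 was the member with the largest difference in each of the 3 comparisons. In control lungs it was counted at 3.27, 9.73, 4.29 and 3.41 CPM (libraries 3, 21, 24 and 26). In WT bleomycin lungs it was at 96.0, 117.5, 123.1, 142.5 and 144.5 CPM (libraries 4, 2, 5, 4-B2 and 7). In CB1R KO bleomycin lungs it was at 30.1, 32.3, 76.4 and 42.2 CPM (libraries 8, 9, 10 and 11). The 3 groups did not overlap, with every WT bleomycin library above every CB1R KO library and every CB1R KO library above every control library. The highest control, library 21, was well below the lowest CB1R KO library, library 8.

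**Figure D1:**
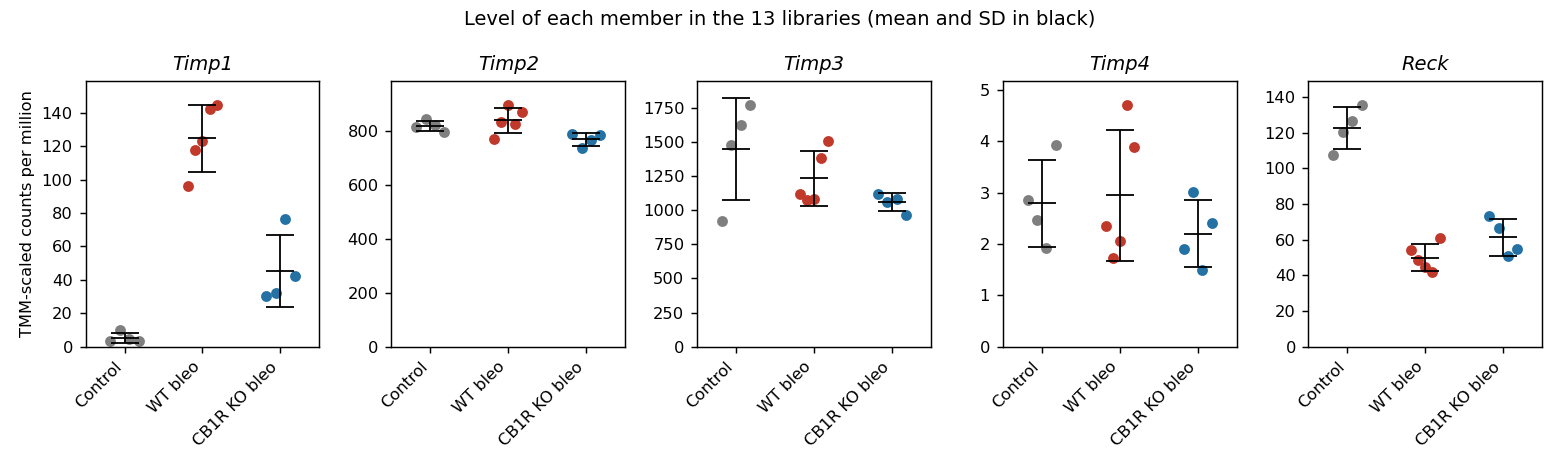
Level of each member in TMM-scaled CPM (vertical axes, each starting at 0) by group, with 1 point per library and the mean and SD in black. Timp1 separates the 3 groups, Reck separates control from both bleomycin groups, and Timp2, Timp3 and Timp4 overlap between control and WT bleomycin.

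Bleomycin raised Timp1 in WT lungs from 5.18 ± 3.07 CPM (SD, n = 4) to 124.7 ± 19.9 CPM (SD, n = 5), a 24.0-fold difference (log2 fold change 4.58 ± 0.35 SE, with an adjusted p of 2.76e-07 in the quasi-likelihood test of edgeR, corrected by Benjamini-Hochberg over every gene tested). It ranked 27 of 15315 genes by log2 fold change from the top. Among the 5 members 1 was called higher (Timp1), 1 lower (Reck) and 3 did not pass the test, where 48.9% of all genes tested were called, 25.0% higher and 23.9% lower. A call alone was therefore common in this comparison. In whole lung RNA, more cells that express a gene and more RNA per cell cannot be told apart.

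Timp1 was lower in CB1R KO than in WT bleomycin lungs, at 45.3 ± 21.4 CPM (SD, n = 4) against 124.7 ± 19.9, a 2.76-fold difference (log2 fold change -1.46 ± 0.29 SE, adjusted p = 0.0314 by edgeR). Of the 5 members Timp1 was the 1 called, where 0.979% of all genes tested were called, 0.359% higher and 0.620% lower. Timp1 ranked 40 from the lowest log2 fold change and 66 by p. The CB1R KO lungs still held Timp1 at 8.69 times the control level (log2 fold change 3.12 ± 0.35 SE, adjusted p = 1.81e-05 from the same test, with 35.4% of all genes called, 19.0% higher and 16.3% lower). In that comparison 1 member was called higher (Timp1) and 2 lower (Reck and Timp3). This comparison uses the same controls as the one above. Of the rise in CPM between control and WT bleomycin, 33.5% remained in CB1R KO lungs, with 20.8%, 22.7%, 59.5% and 31.0% in libraries 8, 9, 10 and 11. Library 10 thus lay closer to the WT bleomycin group than the other CB1R KO libraries did.

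The call between CB1R KO and WT was near the threshold, with an adjusted p from 0.000225 to 0.209 over 11 other ways of processing. It was lost (adjusted p from 0.0576 to 0.121) without any 1 of CB1R KO 8, 9 or 11 or WT 2, 4-B2, 5 or 7, and without CB1R KO 10 the log2 fold change was -1.83 with an adjusted p of 0.00277, all by edgeR. Titles are written in 2 styles, and with only the 10 libraries whose titles are in lower case, which leave out WT 4-B2 and WT 7, the 2 libraries highest in Timp1, and control 26, the log2 fold change was -1.31 and the adjusted p 0.209.

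**Figure D2:**
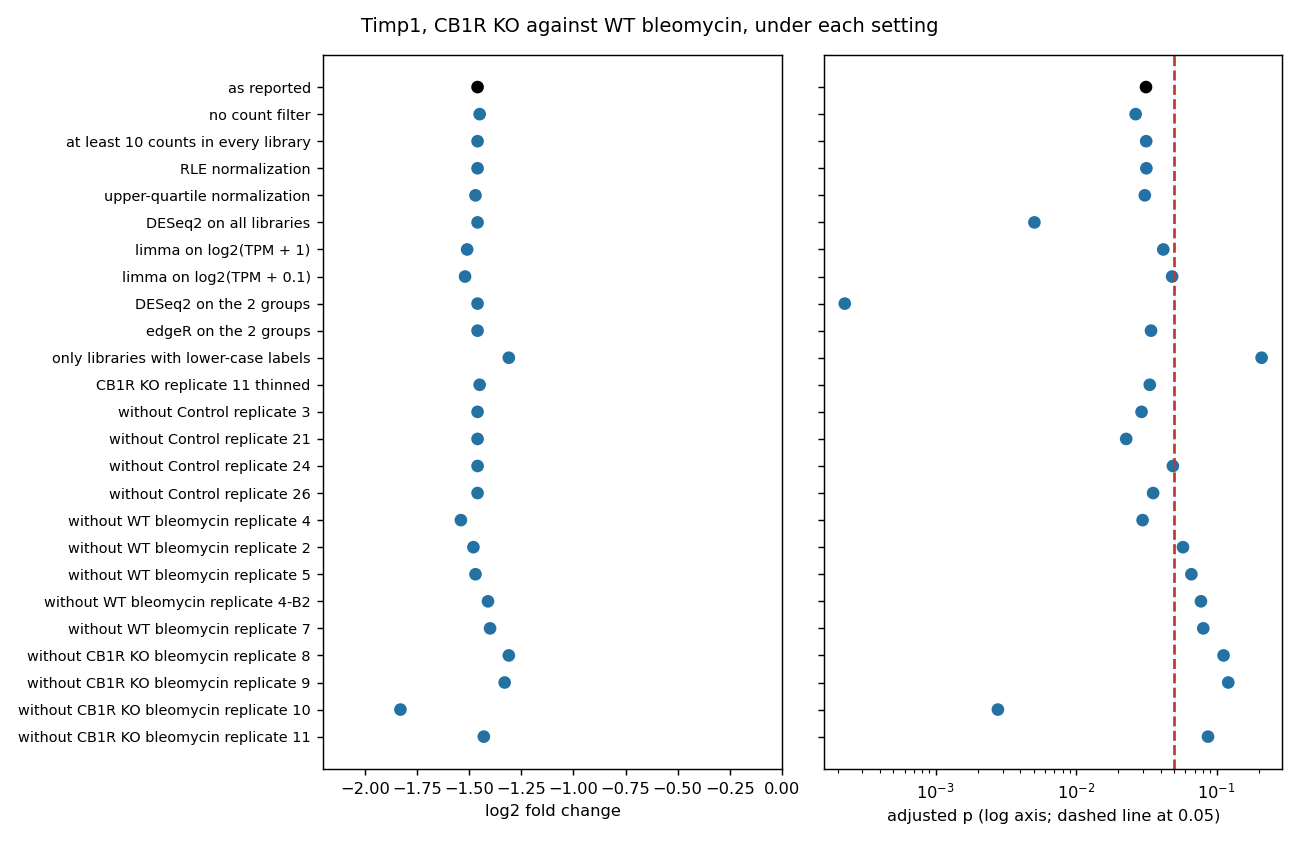
Log2 fold change of Timp1 between CB1R KO and WT bleomycin lungs (left) and its adjusted p on a log axis (right) under each processing alternative and with each library left out (black, as reported). All settings give values between -1.83 and -1.31, while the adjusted p crosses 0.05 in 8 of them.

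Markers of cell types were set beside Timp1. The counts of marker genes called, here and below, are to be read beside the shares over all genes tested. In WT bleomycin against control 25.0% were called higher and 23.9% lower. Between CB1R KO and WT bleomycin 0.359% were called higher and 0.620% lower. The summed TPM of 7 fibroblast genes (Col1a1, Col1a2, Col3a1, Pdgfra, Dcn, Lum and Tcf21) was 702.8 to 742.4 in control, 2075 to 2804 in WT bleomycin and 1587 to 2316 in CB1R KO libraries, and library 10 had the highest sum of the CB1R KO group. The WT bleomycin and CB1R KO ranges overlapped. Of these 7 genes, 4 (Col1a1, Col1a2, Col3a1 and Lum) were higher and 1 (Tcf21) lower with bleomycin in WT mice, and 0 of 7 were called between CB1R KO and WT bleomycin by edgeR, at a median log2 fold change of -0.34 against 0.00 over all genes. None of the 7 was at 0 in every library of a group. For 4 genes of activated fibroblasts (Cthrc1, Postn, Adam12 and Lrrc15) the sums were 200.2 to 215.8, 268.7 to 365.0 and 226.3 to 278.3 in the same order, and the medians were 2.64 and -0.73, with 4 of 4 called in the first comparison and 0 of 4 in the second. Postn made up most of these sums (mean TPM 202.3 in control, 256.7 in WT bleomycin and 226.3 in CB1R KO lungs). In that order Cthrc1 was at 6.33, 36.8 and 21.1, Adam12 at 0.993, 6.17 and 3.46 and Lrrc15 at 0.0422, 1.09 and 0.762. Macrophage markers, a list of 5 genes, summed to 6110 to 6913 TPM in control, 6283 to 9517 in WT bleomycin and 9800 to 10929 in CB1R KO libraries, and 0 of 5 were called between the bleomycin groups, at a median log2 fold change of -0.07. Most of that sum was Lyz2 (mean TPM 7514 in WT bleomycin and 10261 in CB1R KO lungs), with a log2 fold change of 0.42 (adjusted p = 0.0639 by edgeR), while Cd68, Mrc1, Marco and Adgre1 were at -0.32 to -0.07.

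Markers of alveolar epithelium also differed between the groups. The summed TPM of 4 type II cell genes (Sftpc, Sftpb, Lamp3 and Abca3) was 28692 to 33421 in control and 17310 to 20667 in WT bleomycin libraries, and it was 29467, 33354, 21608 and 32954 in CB1R KO libraries 8, 9, 10 and 11. Library 10, the CB1R KO library highest in Timp1, was thus the lowest in this sum and the closest to WT bleomycin. Sftpc made up most of the sum (mean TPM 27907.2 in control, 16026.5 in WT bleomycin and 25696.1 in CB1R KO lungs). With bleomycin in WT mice 3 of the 4 fell, and between CB1R KO and WT bleomycin 2 were called higher, Sftpc (0.66, adjusted p = 0.0289 by edgeR) and Lamp3 (0.51, adjusted p = 0.0416). The sum of 4 type I cell genes (Ager, Hopx, Rtkn2 and Aqp5) was 3595 to 3822 in control, 2676 to 3144 in WT bleomycin and 3827, 3646, 2762 and 3792 in CB1R KO libraries 8, 9, 10 and 11, with 2 of 4 lower in the first comparison and 0 of 4 called in the second. The part of cell makeup in the Timp1 difference was not tested.

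Reck went the other way. It was at 107.8, 120.1, 126.8 and 135.4 CPM in control libraries 3, 21, 24 and 26. It was at 54.1, 48.6, 44.7, 41.6 and 60.8 CPM in WT bleomycin libraries 4, 2, 5, 4-B2 and 7, and at 73.5, 66.3, 51.1 and 54.7 CPM in CB1R KO libraries 8, 9, 10 and 11. Every bleomycin library lay below every control library, while the 2 bleomycin groups overlapped. Reck fell from 122.5 ± 11.7 CPM (SD, n = 4) to 49.9 ± 7.65 CPM (SD, n = 5) in WT lungs (log2 fold change -1.29 ± 0.12 SE, adjusted p = 1.37e-06 by edgeR), 2.45-fold lower, and ranked 402 from the lowest log2 fold change. It was also lower in CB1R KO bleomycin than in control lungs (61.4 ± 10.4 CPM, n = 4; log2 fold change -0.999 ± 0.13 SE, adjusted p = 5.20e-05 from the same test). Between CB1R KO and WT bleomycin lungs Reck differed by a log2 fold change of 0.29 (SE 0.12, unadjusted p = 0.0299, adjusted p = 0.236 by edgeR), which did not pass the adjusted threshold. Its approximate 95% interval, of a normal error, ran from 0.05 to 0.53.

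Endothelial markers as a sum were, like Reck, lower in both bleomycin groups than in control. The summed TPM of 5 endothelial genes was 1460 to 1863 in control, 1114 to 1293 in WT bleomycin and 1284 to 1435 in CB1R KO libraries, without overlap between control and either bleomycin group. Within groups Reck and the sum did not always run together. Control 3 had the lowest Reck (107.8 CPM) and the highest sum (1863) of the controls. Control 26 had the highest Reck (135.4 CPM) and the lowest sum (1460) there. WT 7 had the highest Reck (60.8 CPM) and the lowest sum (1114) of the WT bleomycin group. CB1R KO 10 was the lowest of its group in both (51.1 CPM and 1284). With bleomycin in WT mice 4 of the 5 fell (Pecam1, Cdh5, Cldn5 and Tek, at -0.93 to -0.44) and Vwf rose by 0.55, and between CB1R KO and WT bleomycin Tek was called higher (0.29, adjusted p = 0.0391 by edgeR). None of the 5 was at 0 in every library of a group, and their part in the Reck values was not tested.

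Timp2 stayed within a narrow band. Its lowest, median and highest CPM were 797.1, 817.7 and 844.7 in control, 772.4, 833.4 and 896.2 in WT bleomycin and 736.0, 776.4 and 790.9 in CB1R KO libraries. The groups overlapped, except that the 4 CB1R KO libraries all lay under the 4 controls. The log2 fold change was 0.03 (approximate 95% interval from -0.08 to 0.15, adjusted p = 0.638 by edgeR) for WT bleomycin against control and -0.12 (-0.24 to -0.01, unadjusted p = 0.0463, adjusted p = 0.286 from the same test) for CB1R KO against WT bleomycin. It was -0.09 (adjusted p = 0.263 from the same test) for CB1R KO bleomycin against control. On the TPM scale the values were not the same. With limma on log2(TPM + 1), Timp2 in WT bleomycin lungs exceeded control by 0.16 (adjusted p = 0.0354), and the CB1R KO difference from control turned to 0.07 (adjusted p = 0.420).

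The ratio of a gene's estimated count to its TPM gives the transcript length that the quantification implies, and it was compared after scaling each library by the median over 13901 genes with at least 10 counts in every library. For Timp2 it was 5.91% shorter in WT bleomycin than in control libraries (exact permutation test of the mean log2, two-sided, n = 5 and 4, p = 0.0397, adjusted p = 0.397 over 10 tests). Control libraries 3, 21, 24 and 26 were at 1.05, 1.04, 0.979 and 0.940 times the control mean of Timp2, and the WT bleomycin libraries at 0.922 to 0.949. None of the 10 tests, of 5 members in 2 comparisons, passed adjustment (lowest adjusted p = 0.397 by exact permutation). With 4 against 5 libraries the smallest p that the exact permutation test can give is 0.00794. A test on its own could therefore not pass adjustment over 10 tests, and the result does not show that lengths were equal. Reck kept its implied length within 0.994 to 1.0 times the control mean in all 13 libraries. Timp4 ranged from 0.643 in control 24 to 1.99 in CB1R KO 8.

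Timp3, the matrix-bound inhibitor, varied most between libraries among the abundant members. It was at 919.5, 1483, 1628 and 1772 CPM in control libraries 3, 21, 24 and 26, at 1119, 1077, 1086, 1382 and 1512 CPM in WT bleomycin libraries 4, 2, 5, 4-B2 and 7, and at 1123, 1060, 1086 and 966.6 CPM in CB1R KO libraries 8, 9, 10 and 11. Control 3 was the lowest of the 13 libraries, and the other 3 controls lay above all CB1R KO libraries. Control 3 also had the highest summed TPM of lymphocyte (221.5) and neutrophil markers (1453) of all 13. Control 26, the library highest in Timp3, had the next highest neutrophil sum (1209), with a lymphocyte sum of 92.7. The part of cell makeup in the Timp3 values was not tested. The log2 fold change was -0.23 (SE 0.16, adjusted p = 0.241 by edgeR) for WT bleomycin against control, -0.22 (SE 0.16, adjusted p = 0.504) for CB1R KO against WT bleomycin, and -0.45 (SE 0.17, adjusted p = 0.0466) for CB1R KO bleomycin against control. The first became -0.40 with an adjusted p of 0.0118 (edgeR) without control 3. The third lost its call without any 1 of 11 libraries, all but control 3 and WT 7 (adjusted p up to 0.138), and was -0.62 with an adjusted p of 0.00164 (edgeR) without control 3.

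Timp4 was scarce, with 24.1 to 68.0 estimated counts in 12 libraries and 130.4 in the deep library CB1R KO 11. Its lowest, median and highest CPM were 1.92, 2.66 and 3.93 in control, 1.73, 2.34 and 4.71 in WT bleomycin and 1.49, 2.15 and 3.02 in CB1R KO libraries. All 3 groups overlapped. The standard errors of its log2 fold changes were 0.32 to 0.33, against a median of 0.11 over all genes for the first comparison, so that only large differences were detectable. The log2 fold change was 0.07 (approximate 95% interval from -0.55 to 0.69) for WT bleomycin against control and -0.41 (-1.03 to 0.22) for CB1R KO against WT bleomycin, with adjusted p = 0.864 and 0.549 by edgeR. Heart muscle and fat, the tissues Timp4 is known from, left markers in the libraries. The summed TPM of 6 heart muscle genes was 544.3 to 1440 in control, 107.7 to 410.5 in WT bleomycin and 391.0 to 707.1 in CB1R KO libraries, with 6 of 6 lower in the first comparison and 0 of 6 called in the second (median 0.99). The sum of 6 fat cell genes was 84.9 to 327.7 in control, 52.4 to 195.5 in WT bleomycin and 90.6 to 385.4 in CB1R KO libraries, with 2 of 5 tested lower in the first comparison and 0 of 5 called in the second (median 1.44). No marker of either list was at 0 in every library of a group, and their part in the Timp4 values was not tested. The sign of both Timp4 differences turned with only the lower-case titles (-0.24 and 0.11), which also leave out control 26, the control library highest in Timp4 and Timp3. WT 4-B2 and WT 7, whose titles hold capitals, were the highest WT bleomycin libraries in Timp1, Timp3 and Timp4.

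**Figure D3:**
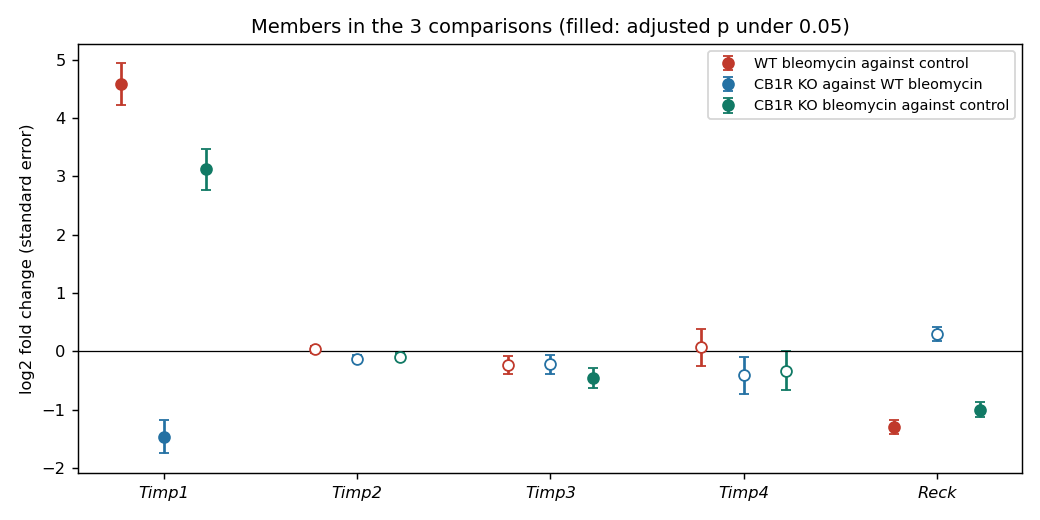
Log2 fold change of each member with its standard error (vertical axis) in the 3 comparisons, filled where the adjusted p was under 0.05. Timp1 spans 4.58 to -1.46, Reck is at -1.29 and -0.999 against control, and Timp2 lies near 0 in all 3.

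Set side by side on the TPM scale, the order of the members changed. In control lungs the mean TPM ran from Timp3 (449.1) over Timp2 (347.0), Reck (40.3) and Timp1 (10.9) to Timp4 (1.43). In WT bleomycin lungs it ran from Timp3 (393.8) over Timp2 (387.2), Timp1 (270.0) and Reck (16.9) to Timp4 (1.78), and Timp1 had moved from rank 8669 to rank 411 of the 20270 listed genes. In CB1R KO bleomycin lungs it ran from Timp2 (363.8) over Timp3 (349.6), Timp1 (100.3, rank 1274) and Reck (21.4) to Timp4 (1.15). In each group only Timp2 and Timp3 overlapped as neighbours in this order. Timp3 was above Timp2 in 3 of 4 control and 3 of 5 WT bleomycin libraries, and Timp2 was above Timp3 in 4 of 4 CB1R KO libraries.

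The summed TPM of the 4 Timp genes was 808.3 ± 116.0 (SD) in the 4 control, 1053 ± 92.1 in the 5 WT bleomycin and 814.9 ± 65.9 in the 4 CB1R KO libraries. The WT bleomycin libraries (952.2 to 1192) lay above all others (639.8 to 898.3). Timp1 supplied 0.759% to 2.48% of that sum in control, 22.7% to 27.4% in WT bleomycin and 8.19% to 19.1% in CB1R KO libraries. Timp3 supplied 54.9% ± 6.28 in control, 37.3% ± 2.67 in WT bleomycin and 43.0% ± 2.57 in CB1R KO libraries. Timp4 made up 0.235% at most. These sums are described without a test.

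**Figure D4:**
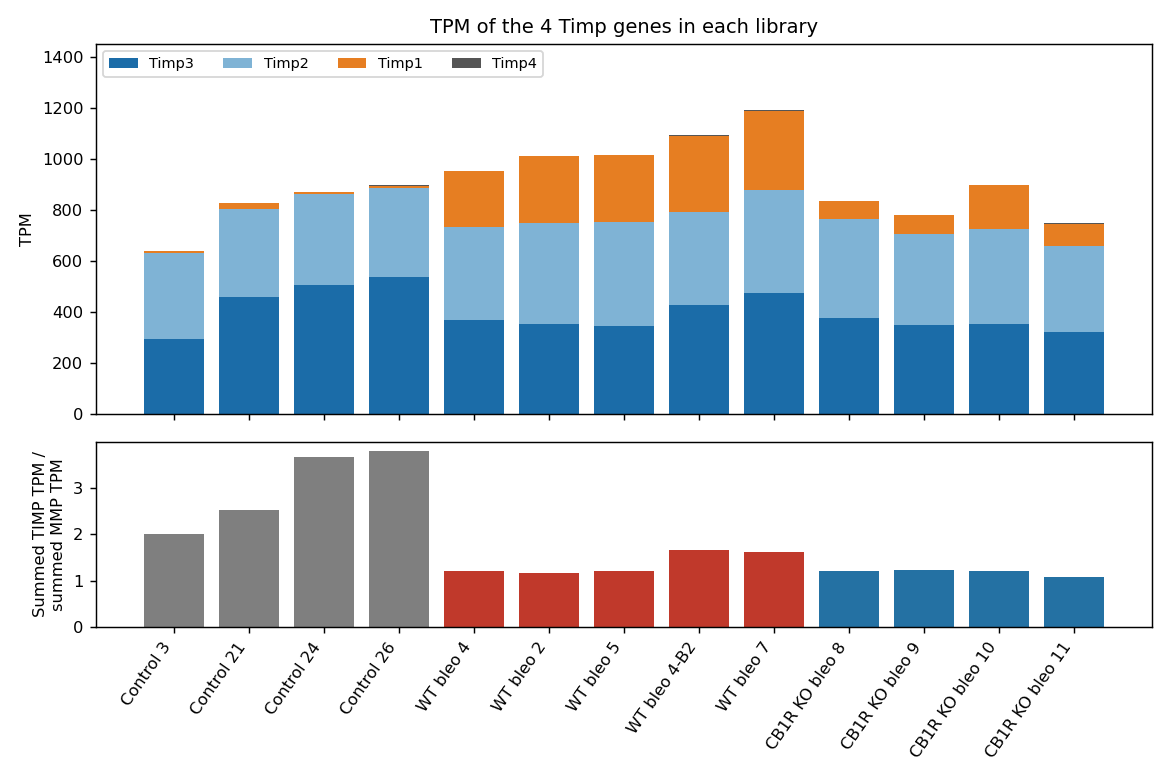
TPM of the 4 Timp genes stacked in each of the 13 libraries (top) and their sum divided by the summed TPM of 23 MMP genes (bottom). Timp1 supplies at most 2.48% of the TIMP sum in control and at least 22.7% in WT bleomycin libraries, and the ratio to MMP TPM is above 2 in control libraries only.

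The MMPs that TIMPs inhibit were also set on the TPM scale. Summed over 23 MMP genes, TPM was 279.8 ± 49.7 (SD) in the 4 control, 776.4 ± 80.2 in the 5 WT bleomycin and 691.5 ± 45.7 in the 4 CB1R KO libraries. TIMP TPM per MMP TPM was 3.00 ± 0.87 in control, with values of 2.01, 2.52, 3.66 and 3.80. It was 1.37 ± 0.24 in WT bleomycin and 1.18 ± 0.07 in CB1R KO libraries, with no value of either above 1.65. The ratio counts RNA of 4 inhibitors and 23 enzymes and says nothing of the active proteins. Mmp2, gelatinase A, Mmp14, its membrane-bound activator, and Mmp12, the macrophage elastase, held 30.1%, 23.6% and 17.2% of MMP TPM in WT bleomycin lungs, against 17.4%, 11.5% and 5.97% in control lungs.

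Of 16 secreted MMPs 11 were tested, since Mmp1a, Mmp1b, Mmp7, Mmp20 and Mmp21 had at most 2 counts in any library. In WT bleomycin against control lungs, 25.0% of all genes tested were called higher and 23.9% lower. Of the 11 MMPs 6 rose and 2 fell there, at a median log2 fold change of 1.65 against -0.01 over all genes. The 2 with the lowest p among those that rose were Mmp2 (2.24 ± 0.17 SE, adjusted p = 1.96e-07 by edgeR) and the stromelysin Mmp3 (1.71 ± 0.17 SE, adjusted p = 2.44e-06), and those that fell were Mmp28 (-1.39 ± 0.11 SE) and Mmp9 (-1.82 ± 0.35 SE), a gelatinase that neutrophils store. The 3 neutrophil markers S100a8, S100a9 and Cxcr2 fell as well, at a median of -1.90 and a summed TPM of 239.3 to 1453 in control, 123.3 to 307.7 in WT bleomycin and 178.5 to 453.0 in CB1R KO libraries, and the part of neutrophil number in the Mmp9 value was not tested. Between CB1R KO and WT bleomycin lungs 1 of 11 rose and 1 fell, where 0.359% of all genes tested were called higher and 0.620% lower. Mmp3 was at 47.4 to 81.8 CPM in WT and 24.4 to 36.2 CPM in CB1R KO libraries (log2 fold change -1.06 ± 0.17 SE, adjusted p = 0.0177 by edgeR), and Mmp28 at 12.9 to 19.4 and 20.9 to 27.7 CPM (0.56 ± 0.11 SE, adjusted p = 0.0307). Neither gene overlapped between the groups, and each lay nearer to its control level in the CB1R KO libraries. Mmp2 differed by 0.03 (SE 0.15, adjusted p = 0.933 in the same test), with 403.5 to 521.3 CPM in WT and 427.4 to 528.9 CPM in CB1R KO libraries. Thus Mmp3 and Timp1 were lower in CB1R KO lungs while Mmp2 had 103% of its rise left.

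Of 7 membrane-bound MMPs 5 were tested (Mmp16 and Mmp24 were too low), and 3 rose and 1 fell with bleomycin in WT lungs, at a median of 0.81. Over all genes tested, 25.0% were called higher and 23.9% lower in that comparison. Mmp14 rose by 2.48 on the log2 scale (standard error 0.18, adjusted p = 1.81e-07 by edgeR) and Mmp23 by 0.86 (SE 0.12), while Mmp15 fell by 0.67 (SE 0.15). None of the 5 was called between CB1R KO and WT bleomycin. Mmp14 had 63.6% of its rise left there, with 44.4%, 43.8%, 94.9% and 71.3% in libraries 8, 9, 10 and 11.

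The ADAM and ADAMTS proteases, among them targets of Timp3, gave 9 of 13 higher and 1 lower with bleomycin in WT mice. Of all genes tested 25.0% were called higher and 23.9% lower. The median log2 fold change of the 13 was 0.73. Adamts2, which trims procollagen, rose by 1.87 (SE 0.11) and the aggrecanase Adamts4 by 4.93 (SE 0.30, adjusted p = 5.81e-08 by edgeR), and Adam33 fell by 0.96 (SE 0.34). Adamts4 was the 1 of 13 called between CB1R KO and WT bleomycin, at 28.4 to 40.6 CPM in WT and 8.83 to 25.1 CPM in CB1R KO libraries (log2 fold change -1.18 ± 0.22 SE, adjusted p = 0.0266 from the same test). As for Timp1, CB1R KO 10 was the highest of its group, with 71.7% of the rise left against 42.2% for the group.

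Among 8 proteins that bind TIMPs at the cell surface or in the matrix, 5 genes rose and 2 fell in WT bleomycin lungs. The shares over all genes tested were 25.0% higher and 23.9% lower. Cd63, a tetraspanin receptor of Timp1, rose by 1.23 (SE 0.09, adjusted p = 2.39e-07 by edgeR) and the endocytic receptor Lrp1 by 0.51 (SE 0.09). Kdr, the VEGF receptor of endothelial cells that Timp3 binds, fell by 1.02 (SE 0.13), and the matrix protein Efemp1 fell by 0.70 (SE 0.12). The part of the lower endothelial markers in the Kdr value was not tested either. None of the 8 was called between CB1R KO and WT bleomycin.

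In the Reck complex list, 3 of 6 genes rose and 2 fell with bleomycin in WT lungs, where 25.0% of all genes tested were called higher and 23.9% lower. The ligands Wnt7b (1.76 ± 0.18 SE, adjusted p = 3.43e-06 by edgeR) and Wnt7a (0.86 ± 0.15 SE) and the partner Adgra2 (0.40 ± 0.07 SE) rose, the receptors Fzd4 (-0.92 ± 0.15 SE) and Lrp5 (-0.38 ± 0.06 SE) fell, and Lrp6 differed by -0.20 (adjusted p = 0.105 in the same test). The ligands thus moved up where Reck moved down. The same 3 were higher and the same 2 lower in CB1R KO bleomycin than in control lungs, a comparison with the same controls. There 19.0% of all genes tested were called higher and 16.3% lower. Between CB1R KO and WT bleomycin 0 of 6 were called.

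Other protease inhibitors were also higher. Of 12, 9 rose and 0 fell in WT bleomycin lungs, with a median of 1.0, where 25.0% of all genes tested rose and 23.9% fell. The cysteine protease inhibitor Cstb rose by 1.26 with bleomycin (SE 0.08, adjusted p = 7.55e-08 by edgeR). Between CB1R KO and WT bleomycin lungs 3 of the 12 were called lower and 0 higher, against 0.620% and 0.359% of all genes tested. Serpina3n, an inhibitor of serine proteases, was at 501.0 to 874.2 CPM in WT bleomycin and 238.1 to 413.7 CPM in CB1R KO libraries (log2 fold change -1.003 ± 0.17 SE, adjusted p = 0.0215 by edgeR), and Serpine2, another inhibitor of this kind, was among those called lower (-0.55 ± 0.12 SE, adjusted p = 0.0416). Serpina3n had 39.3% of its rise left in CB1R KO lungs, beside the 33.5% of Timp1, while Cstb had 80.6%.

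The list of cytokines, signal carriers and AP-1 factors tied to the induction of Timp1 held 16 genes. Its member Socs3 is not itself an inducer. In WT bleomycin lungs 12 rose and 1 fell, at a median of 0.98, where 25.0% of all genes tested rose and 23.9% fell. Socs3, a feedback target of STAT3, rose by 2.62 (SE 0.20, adjusted p = 2.48e-07 by edgeR) and the oncostatin M receptor Osmr by 1.27 (SE 0.11), whereas Jun fell by 0.62 (SE 0.09). Between CB1R KO and WT bleomycin lungs 2 of 16 were called, both lower (Socs3 and Fosl1), and the median was -0.35. Of all genes tested 0.620% were called lower there. Socs3 was at 37.8 to 54.5 CPM in control, 187.8 to 364.5 in WT bleomycin and 108.4 to 160.8 in CB1R KO libraries (log2 fold change between the last groups -1.04 ± 0.18 SE, adjusted p = 0.0231 by edgeR). Fosl1, an AP-1 subunit, was low, at 0.950 to 1.94 CPM in WT bleomycin against 0.129 to 0.458 CPM in CB1R KO and 0.180 to 0.258 CPM in control libraries (-2.28 ± 0.37 SE, adjusted p = 0.0186 from the same test). With 6.58% of its rise left, the CB1R KO libraries overlapped control in Fosl1. The subunits Fos and Junb and the cytokines Il6, Lif and Osm did not pass the test in this comparison.

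**Figure D5:**
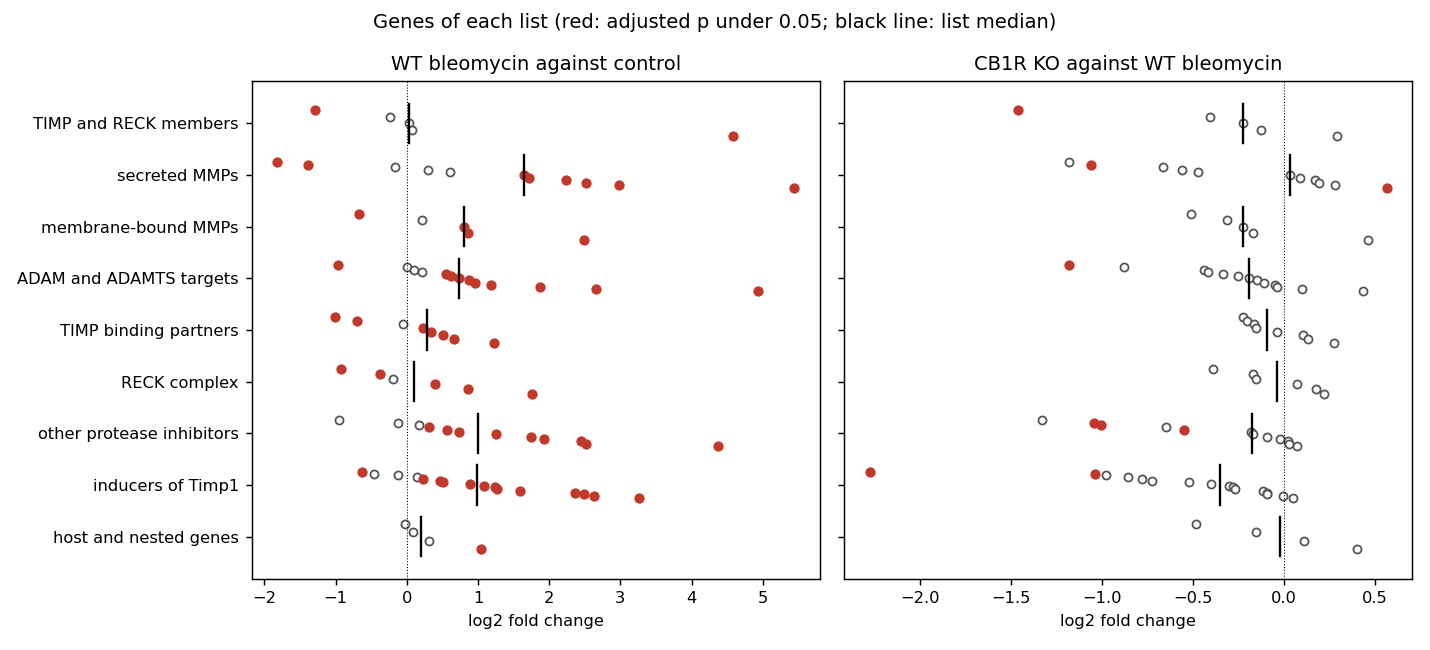
Log2 fold change of each tested gene of 9 lists (horizontal axis) in WT bleomycin against control (left) and CB1R KO against WT bleomycin (right), with red points at adjusted p under 0.05 and a black line at each list median. On the left the median is above 0.7 for both MMP lists, for the ADAM list, for other inhibitors and for the inducer list, and on the right red points are few.

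In the mouse, Timp1, Timp3 and Timp4 lie inside introns of the synapsin genes Syn1, Syn3 and Syn2, on the other strand, and Cep295nl (earlier Ddc8) lies inside Timp2. The quantification was not stated to use strand, so reads from stretches shared by 2 transcripts could not be told apart. Syn1 was at 1.25 to 2.34 CPM in control and 2.47 to 3.93 CPM in WT bleomycin libraries, without overlap (log2 fold change 1.04 ± 0.27 SE, adjusted p = 0.00566 by edgeR), with 20 to 39 and 39 to 62 estimated counts. It had 1.55 to 3.27 CPM in CB1R KO libraries (-0.48 against WT, adjusted p = 0.365 in the same test). Syn2 (10.1, 12.6 and 13.6 CPM in control, WT and CB1R KO), Syn3 (0.862, 0.848 and 1.16 CPM) and Cep295nl (1.25, 1.33 and 1.20 CPM) passed no comparison.

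The genes whose profile over the 13 libraries was closest to that of Timp1, by the root mean square difference of log2 CPM relative to the control mean, were Tnc (0.372), Saa3 (0.442), Rgs16 (0.461), Has2 (0.469) and Adamts4 (0.483), against a median of 3.44 over all genes. Tnc encodes the matrix protein tenascin C, Has2 a hyaluronan synthase and Saa3 an acute-phase protein. Their log2 fold changes ran from 4.22 to 4.94 for WT bleomycin against control and from -1.18 to -0.86 for CB1R KO against WT bleomycin, where Timp1 was at -1.46. The genes near Timp1, and those near Reck below, were picked for likeness over these same 13 libraries. Fold changes close to those of the member therefore follow from the choice and are no separate result. Between CB1R KO and WT bleomycin, Rgs16 (adjusted p = 0.0281 by edgeR) and Adamts4 (0.0266) were called. Tnc (0.0702), Saa3 (0.102) and Has2 (0.104) were not called in the same test. For Reck the closest genes were Vtn (0.0980), Cbx7 (0.119), Ppp1r14a (0.126), Tmem100 (0.130) and Tmem204 (0.133), against a median of 1.02. These were at -1.38 to -1.22 for WT bleomycin against control and at 0.18 to 0.52 for CB1R KO against WT bleomycin, in which none of the 5 was called by edgeR (adjusted p from 0.0630 to 0.488).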

How the data were processed

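Lung RNA was sequenced in 13 oligo(dT)-enriched libraries as paired-end reads. The authors quantified the reads with kallisto (version not given in the sources used here) against the Ensembl mouse reference, GRCm39 in the submitters' processing notes, and deposited estimated counts and TPM, both summarised per gene symbol over protein-coding transcripts. Groups came from the sample labels. The TPM table held 1 column that matched no sample, which was not used.

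Estimated counts were rounded, filtered with filterByExpr and TMM-scaled, and 3 groups were fitted to all 13 libraries by quasi-likelihood in edgeR 4.0.16 (R 4.3.3), calling genes at a Benjamini-Hochberg adjusted p under 0.05 over 15315 genes. Profiles were compared as log2 CPM with a prior count of 2. The scripts were tested on simulated data. The median standard error over all genes was 0.11 to 0.12 on the log2 scale. Each library was taken as 1 replicate, although the labels do not say whether WT 4 and 4-B2 are separate mice, and p-values measure the spread between these libraries.

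The members and lists were chosen with earlier results of these data known. Genes named were the 5 members, up to 2 genes per list, comparison and direction with the lowest p among those called, all host and nested genes, and the 5 genes closest in profile to each member called with a log2 fold change beyond 1 between WT bleomycin and control. Other list genes and markers (Mmp12, Adgra2, Lrp6 and uncalled inducers among them) were named after their values were seen, to complete a count. The values of 1 gene that the rule selects are not reported here. Promoters came from RefSeq on GRCm38.p6, another build than that of the files, by symbol. The other settings tried were omitting the count filter, a minimum of 10 counts per library, RLE and upper-quartile factors, DESeq2 1.42.0, limma 3.58.1 on log2 TPM with 1 or 0.1 added, edgeR on 2 groups, the 10 libraries with lower-case titles, thinning CB1R KO 11, and omitting each library.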

Additional observations from a re-analysis of the deposited data

Results flagged for a closer look

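Of 51 sets of 4 or 5 values looked at, 6 had a lowest or highest value farther from the rest than Dixon's 95% limit, where chance gives about 1 in 20 sets, or 2.55. Timp1 in control 21 was at 9.73 CPM, with a gap of 0.842 of the group's range, and without that library the log2 fold change of Timp1 between WT bleomycin and control was 5.09. The implied transcript length, relative to the control mean, stood apart in CB1R KO 11, the deep library, for Timp1 (1.03), Timp2 (1.03) and Reck (0.994). It also stood apart in CB1R KO 8 for Timp4 (1.99), where that gene had 29.1 estimated counts, and in control 26 for Timp3 (0.996).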

How the results depend on the processing

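The calls of Timp1 and Reck against control kept their direction and side of the threshold under all 11 other settings and with each of 13 libraries left out. The number of genes called between CB1R KO and WT bleomycin was 640 with DESeq2 on all libraries and 644 on 2 groups, 93 with limma on log2(TPM + 0.1), 88 with edgeR on 2 groups and 6 with only lower-case titles (without WT 4-B2, WT 7 and control 26), against 150 as reported, and ranged from 1 to 653 with 1 library left out (lowest without CB1R KO 9, highest without CB1R KO 10). Timp1 in that comparison was -1.31 with lower-case titles, no longer called, and ranged from -1.83 to -1.31 with 1 library left out. Timp2 in WT bleomycin against control was 0.16 with limma at either pseudocount, past the threshold, and its difference between CB1R KO bleomycin and control turned to 0.07. Timp3 between CB1R KO bleomycin and control lost its call with no filter and with CB1R KO 11 thinned (both -0.45), with edgeR on 2 groups (-0.45), with limma at either pseudocount (-0.33) and with lower-case titles (-0.34), and ranged from -0.62 to -0.35 with 1 library left out. In WT bleomycin against control Timp3 ranged from -0.40 to -0.13, past the threshold without control 3. Timp4 turned with lower-case titles, to -0.24 in WT bleomycin against control and 0.11 in CB1R KO against WT bleomycin, and ranged from -0.15 to 0.27 in the former with 1 library left out.

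The log2 difference in implied length changed sign with 1 library left out for Reck (-0.000414 to 6.14e-05 in WT bleomycin against control and -0.00277 to 0.000534 in CB1R KO against WT bleomycin), and in the latter for Timp1 (-0.00372 to 0.0202), Timp2 (-0.0308 to 0.0255) and Timp3 (-0.0108 to 0.00105). None passed adjustment, which a test on its own could not do with so few libraries. With 1 library left out, the mean of the summed TIMP TPM ranged from 779.2 to 864.5 in control, 1018 to 1078 in WT bleomycin and 787.1 to 837.3 in CB1R KO libraries. The mean TIMP TPM per MMP TPM ranged from 2.732 to 3.329, 1.304 to 1.424 and 1.161 to 1.215 in the same order. All 52 tests of other named list genes kept their call and direction with DESeq2. These genes had been picked for the lowest p among those called by edgeR. Their agreement was therefore likely beforehand and is no independent check. The cause of these changes was not tested, beyond the smaller number of libraries in some fits. No paired analysis was possible because the groups share no replicate number. Low counts limit Timp4, Fosl1, Syn1 and Syn3.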
